A study of Canis lupus familiaris with 4 samples.

Results

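Cadherins are calcium-dependent adhesion proteins of the cell surface. Classical cadherins bind their like on the neighbouring cell and are anchored to actin through catenins, protocadherins act mainly in cell recognition in the nervous system, and the very large FAT, dachsous and CELSR proteins act in planar cell polarity and growth control. Promoter methylation of several of these genes, such as CDH1, CDH13 and PCDH10, is known from human tumours. The cadherin and protocadherin genes described here were chosen by their symbols in the deposited region tables: CDH or FAT followed by a number, PCDH, DCHS or CELSR. In all, 40 such genes were listed, of 21789 genes with a region in either line. They held 341 of the 123421 regions of the resistant line and 260 of the 82247 of the parental line.

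The regions come from MethylCap-seq, in which a methyl-binding domain protein captures methylated fragments of genomic DNA for sequencing. CLBL-1 8.0 resists doxorubicin and was cultured in its presence at 8 µM, and its parent CLBL-1 is labelled as not chemoresistant. Both grow from a dog's diffuse large B-cell lymphoma and are labelled as lymph node tissue of tumour stage IV, and doxorubicin is an anthracycline that poisons topoisomerase II. Each line gave 1 low salt and 1 high salt eluate, which stand together in a single list per line, so there is no replicate and no p-value. The identity of the cells could not be checked against expressed markers, since the assay measures DNA.

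A region is a stretch listed as enriched by the capture, and its fold enrichment is the authors' value for that region within its list. Coordinates refer to CanFam3.1. Read depth is unknown, so a region missing from a list does not show unmethylated DNA. Intervals are Wilson 95% intervals and cover counting error only, as neighbouring regions are not independent. CLBL-1 8.0 had 1.31 times as many cadherin and protocadherin regions as CLBL-1, and 1.5 times as many regions of any kind. With the CLBL-1 8.0 list shortened to the length of the CLBL-1 list by dropping its regions of lowest fold, the direction turned, with 230 family regions in CLBL-1 8.0 and 260 in CLBL-1. Copy number was not measured.

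Regions were sorted into promoter (the authors' flag, reaching 3000 bp upstream of the transcription start), exon and intron. CLBL-1 8.0 had 31 promoter, 81 exon and 219 intron regions in these genes, and CLBL-1 had 29, 62 and 160. A further 10 CLBL-1 8.0 regions and 9 CLBL-1 regions lay downstream or farther upstream. Promoter regions made up 9.09% (6.48 to 12.6) of the family's regions in CLBL-1 8.0, against 11.2% (7.88 to 15.6) in CLBL-1. Over all regions assigned to a gene, the promoter shares were higher, at 14.3% and 17.6%. Exon regions made up 23.8% (19.5 to 28.5) of the family's regions in CLBL-1 8.0, against 23.8% (19.1 to 29.4) in CLBL-1. Over all regions assigned to a gene, the exon shares were 17.4% and 19.9%. Introns held 64.2% (59.0 to 69.1) of the family's regions in CLBL-1 8.0, against 61.5% (55.5 to 67.2) in CLBL-1. Over all regions with a gene the intron shares were 58.0% and 51.6%.

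**Figure D1:**
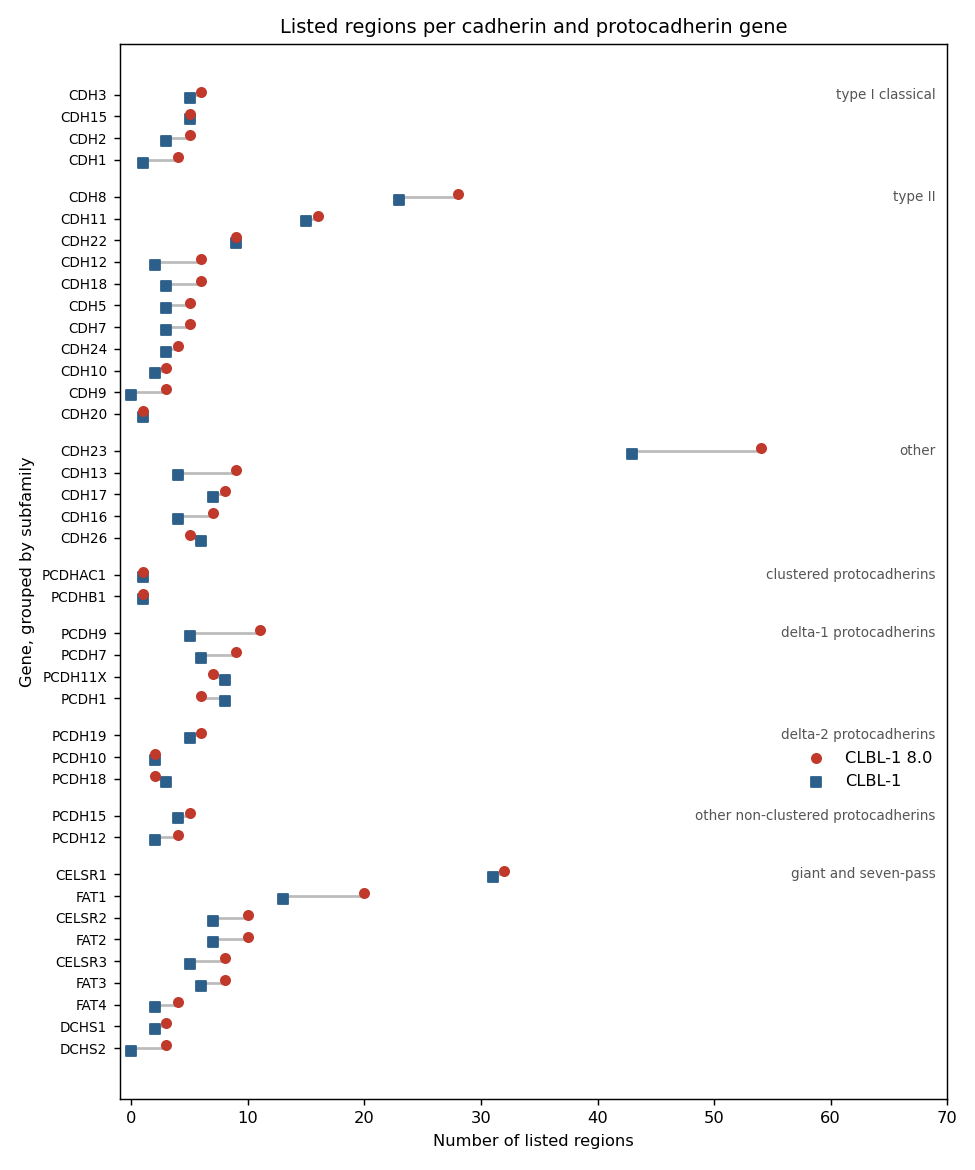
Number of listed regions (horizontal axis) for each cadherin and protocadherin gene, grouped by subfamily, with circles for CLBL-1 8.0 and squares for CLBL-1. CDH23 has the longest row, with 54 and 43 regions, and most other genes have fewer than 12 in either list.

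The number of regions per gene was uneven. CDH23, CELSR1 and CDH8 together held 114 regions in CLBL-1 8.0 and 97 in CLBL-1, which is 33.4% and 37.3% of the family's regions. The median gene had 6 regions in CLBL-1 8.0 and 4 in CLBL-1. More regions were listed in CLBL-1 8.0 for 30 of the 40 genes, fewer for 4 (PCDH1, CDH26, PCDH11X and PCDH18) and as many for 6. The background for these counts is that 60.1% of all listed genes had more regions in CLBL-1 8.0 and 9.41% had fewer. Under these symbols, DCHS2 and CDH9 were listed in CLBL-1 8.0 alone, with 3 regions each, where 20.3% of all listed genes were in CLBL-1 8.0 alone. In CLBL-1 alone stood 0 of the 40 genes, where the share over all listed genes is 2.13%. Of the family symbols in the RefSeq gene table, CDH6, CDH19, PCDH17, PCDH20 and PCDHA13 had no region under these symbols in either list, and regions of such a gene may be listed under another name.

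Promoter regions of the classical type I cadherins were present in both lines for all 4 genes. CDH1 encodes E-cadherin, the adhesion protein of epithelial cells. Its promoter region was a CpG island region on chromosome 5, at 80833922 to 80835291 in CLBL-1 8.0. In CLBL-1 it lay at 80833899 to 80835274. In CLBL-1 8.0 it reached from 413 bp upstream to 956 bp downstream of the transcription start. The CLBL-1 region reached from 396 bp upstream to 979 bp downstream. The fold was 7.32 in CLBL-1 8.0 and 9.66 in CLBL-1. It was the only CDH1 region of CLBL-1, while CLBL-1 8.0 had 3 more, all intronic, outside islands and shores, and without a CLBL-1 counterpart. Over all intron regions of CLBL-1 8.0, 46.8% had no counterpart.

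CDH3, which encodes P-cadherin and lies next to CDH1, had the longest type I promoter region. It covered 1707 bp in CLBL-1 8.0 (chromosome 5, 80911106 to 80912813) with a fold of 8.06, and the CLBL-1 region at 80911071 to 80912794 had a fold of 8.47. CDH15, the muscle cadherin gene, had a shore region over its transcription start with folds of 9.35 in CLBL-1 8.0 and 10.3 in CLBL-1. A second CDH15 region, in an island, ended 609 bp upstream of the start in CLBL-1 8.0 and 580 bp upstream in CLBL-1, with folds of 6.99 and 8.96. The CDH1, CDH3 and CDH15 promoter regions thus covered nearly the same bases in both lists.

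CDH2 encodes N-cadherin, typical of neural and mesenchymal cells, and its promoter was divided into regions differently in the 2 lists. CLBL-1 8.0 had 3 island regions there, with folds of 4.78, 3.79 and 3.53, and CLBL-1 had 2, with folds of 3.58 and 4.25. The longer CLBL-1 region ran from 670 bp upstream to 498 bp downstream of the start and met 2 CLBL-1 8.0 regions, which were separated by a gap. All 5 regions met one of the other list.

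Type II cadherins, whose members mark mesenchyme, vessels and subsets of neurons, had promoter regions in 7 of 11 genes for CLBL-1 8.0 and in 6 of 11 for CLBL-1. CDH7 had the highest promoter fold of the family in CLBL-1 8.0, at 17.7, for a shore region over its start on chromosome 1 (11824012 to 11824586). In CLBL-1 the same stretch, at 11823998 to 11824625, had a fold of 18.4. CDH10 had the highest promoter fold in CLBL-1, at 18.9 (chromosome 4, 80926673 to 80927185), and the CLBL-1 8.0 region at 80926692 to 80927150 had a fold of 10.5. Both CDH10 regions lay just upstream of the start and outside islands and shores. CDH22 had a shore region over its start, with folds of 8.33 in CLBL-1 8.0 and 13.3 in CLBL-1, and an island region upstream of it, with folds of 5.28 and 6.31.

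CDH11, the cadherin of mesenchymal cells and osteoblasts, had an island region over its start, with folds of 6.41 in CLBL-1 8.0 and 10.1 in CLBL-1. CDH5 encodes the cadherin of vascular endothelium. Its promoter region was a long shore region whose nearer edge lay 2673 bp upstream of the start in CLBL-1 8.0 (chromosome 5, 82866604 to 82868401) and 2609 bp upstream in CLBL-1 (82866540 to 82868342), so that most of it lay beyond the promoter window. Its folds were 5.99 and 7.08. CDH24 had a pair of shore regions upstream of its start in each list, with folds of 7.10 and 6.03 in CLBL-1 8.0 and 8.73 and 10.1 in CLBL-1.

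**Figure D2:**
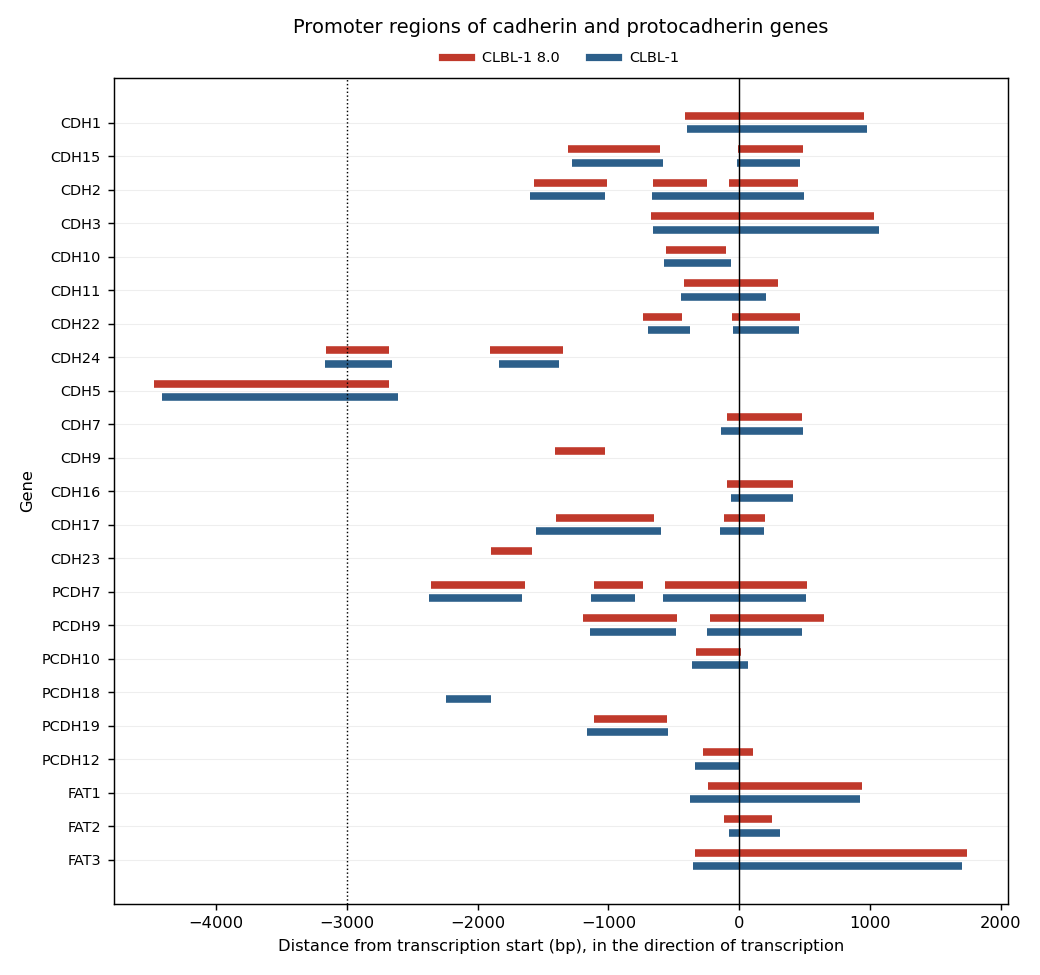
Promoter regions of the 23 genes with one in either list, drawn by distance from the transcription start (bp, negative upstream, in the direction of transcription), CLBL-1 8.0 above CLBL-1 for each gene. The solid line marks the start and the dotted line 3000 bp upstream. In 20 genes both lists have bars over nearly the same stretch, while CDH9, CDH23 and PCDH18 have one in 1 list.

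Of the 40 genes, a promoter region was listed for 22 in CLBL-1 8.0, for 21 in CLBL-1 and for 20 in both. Over all listed genes the shares were 48.1% in CLBL-1 8.0, 39.0% in CLBL-1 and 35.5% in both. A promoter region was listed for CDH9 and CDH23 in CLBL-1 8.0 only, where the background is 12.6% of genes, and for PCDH18 in CLBL-1 only, where it is 3.50%. None of these 3 regions had a counterpart in the other list. All 3 lay outside islands and shores and more than 1000 bp upstream of the start.

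The CDH9 region, upstream of a cadherin gene used by neurons, had a fold of 8.86, the fourth highest among the family's CLBL-1 8.0 promoter regions (chromosome 4, 79151871 to 79152251, ending 1025 bp before the start). CDH9 also had an intron region and a region in its 3' untranslated exon in CLBL-1 8.0, and no region in CLBL-1. The CDH23 promoter region had a fold of 5.72 (chromosome 4, 22205078 to 22205391, ending 1581 bp before the start). The PCDH18 promoter region of CLBL-1 had a fold of 3.81 (chromosome 19, 4965682 to 4966028, ending 1898 bp before the start). PCDH18 had 2 more regions in each list, both in exons, and each met one of the other list. The pair nearer the transcription start, in an island, began just downstream of that start, which lies at 4967926. It began at 4967998 in CLBL-1 8.0 and at 4967981 in CLBL-1. Its folds, 6.45 in CLBL-1 8.0 and 6.999 in CLBL-1, were above the 3.81 of the promoter region. The DNA next to the PCDH18 start was thus listed in both lines.

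Among the delta protocadherins, which act in axon growth and synapse formation, PCDH7 had 3 island regions around its start in each list. Their folds were low, from 2.46 to 2.63 in CLBL-1 8.0 and between 2.37 and 2.87 in CLBL-1. PCDH9 had a shore region over its start, with folds of 5.88 in CLBL-1 8.0 and 11.0 in CLBL-1, and an island region upstream of it, with folds of 5.28 and 6.63. The first of these is a promoter region in both lists, placed in an intron in CLBL-1 8.0 and in a 5' untranslated exon in CLBL-1 by the authors' location category. PCDH10, a tumour suppressor gene known for promoter methylation in human cancers, had a shore region over its start, with folds of 3.47 in CLBL-1 8.0 and 3.77 in CLBL-1. PCDH19, the X-linked gene of an inherited epilepsy, had an island region that ended about the same distance before the start in both lists, at 553 bp in CLBL-1 8.0 and 544 bp in CLBL-1, with folds of 3.78 and 5.00.

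PCDH12, a protocadherin of endothelial cells, shows the effect of a region's edge on its flag. The CLBL-1 8.0 region crossed the transcription start by 105 bp and carried the start flag, while the CLBL-1 region ended 1 bp before it and did not. Its fold was 4.35 in CLBL-1 8.0, against 6.11 in CLBL-1. Of the giant cadherins, FAT1 had a shore region (folds of 3.41 in CLBL-1 8.0 and 4.08 in CLBL-1), FAT2 a region outside islands and shores (6.18 and 7.11) and FAT3 an island region (5.03 and 4.43), each over the start. FAT4, DCHS1, DCHS2 and the 3 CELSR genes had no promoter region in either list under these symbols. On chromosome 15, which also holds DCHS2, a gene described as protocadherin-16-like had a promoter region in both lists (4.82 and 5.00). Whether that gene belongs to DCHS2 was not tested.

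CpG islands and their shores held most promoter regions of the family. Of the 31 promoter regions in CLBL-1 8.0, 13 met an island (41.9%, 26.4 to 59.2) and 13 a shore, and of the 29 in CLBL-1, 12 met an island (41.4%, 25.5 to 59.3) and 13 a shore. Over all promoter regions the island shares were 18.0% and 20.9%. Several of these island regions share a gene, 3 of them in PCDH7 in each list and 3 in CDH2 in CLBL-1 8.0, so they are not independent. Outside islands and shores lay 16.1% of the family's promoter regions in CLBL-1 8.0 and 13.8% in CLBL-1.

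Exon and intron regions were farther from islands. In CLBL-1 8.0, 48.1% of exon regions (37.6 to 58.9) and 55.3% of intron regions (48.6 to 61.7) lay outside islands and shores. In CLBL-1 these shares were 37.1% (26.2 to 49.5) and 43.1% (35.7 to 50.9). Over all regions of the lists, 54.7% of exon and 71.6% of intron regions lay outside in CLBL-1 8.0, and 43.3% and 53.2% in CLBL-1. The lower intron shares of the family depended in part on CELSR1 and CDH8, which are rich in island and shore regions. Without these 2 genes, a choice made after seeing the data, 66.7% of the family's intron regions lay outside in CLBL-1 8.0 and 54.3% in CLBL-1. Set against the 71.6% and 53.2% of all intron regions, only the CLBL-1 8.0 share stayed lower. Leaving out CDH23 instead, also chosen after seeing the data, lowered the family's share for both lists, to 35.5% for CLBL-1.

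**Figure D3:**
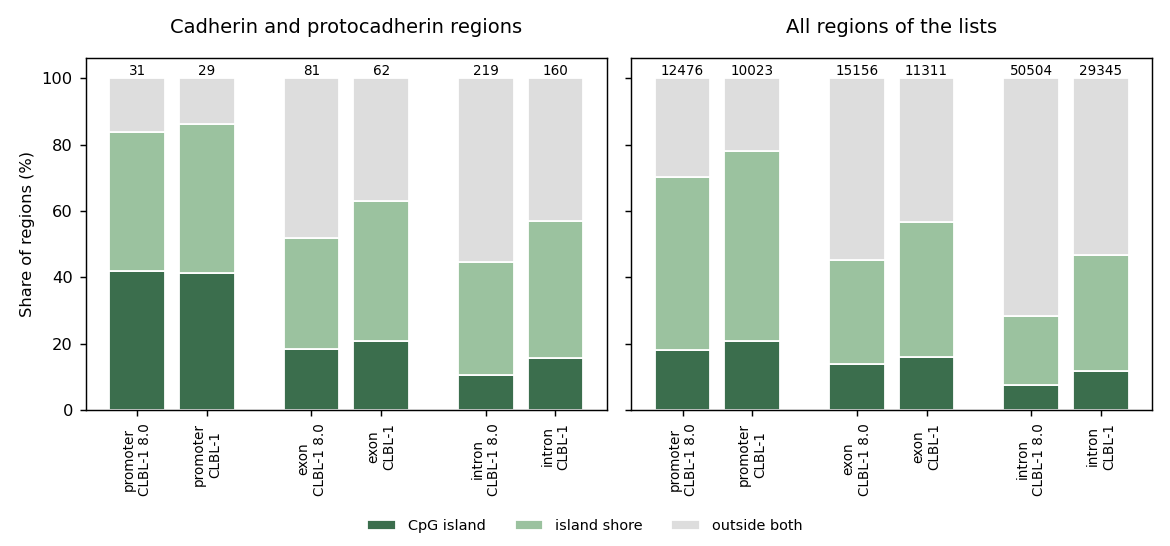
Share of regions (vertical axis, %) in CpG islands, in shores and outside both, for promoter, exon and intron regions, with CLBL-1 8.0 left of CLBL-1 and the number of regions above each bar. The left panel shows the family, where islands take 41.9% and 41.4% of promoter regions, and the right panel shows all regions, where they take 18.0% and 20.9%.

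Exon regions of highest fold were the same stretches in both lists for 4 genes. The exon with the highest fold was the 3' untranslated exon of CDH10 (chromosome 4, at 81100105 to 81100808 for CLBL-1 8.0 and at 81100076 to 81100805 for CLBL-1), with 15.9 and 18.3. A coding exon of CDH23 followed, with 12.2 in CLBL-1 8.0 (22550756 to 22551279) and 16.0 in CLBL-1 (22550780 to 22551288). CDH13 encodes T-cadherin, which is held to the membrane by a lipid anchor. It had no promoter region, but a shore region of 1305 bp in a 5' untranslated exon (chromosome 5, 69488093 to 69489398 in CLBL-1 8.0), with folds of 12.1 in CLBL-1 8.0 and 12.5 in CLBL-1. This region lay 96721 bp from the transcription start that the tables use for the gene. PCDH12 had a coding exon region with folds of 11.0 and 14.9. PCDHB1 had a coding exon region with 11.1 in CLBL-1 8.0 and 11.3 in CLBL-1, and DCHS1, which encodes a binding partner of FAT4, had 10.5 and 14.3.

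Among the subfamilies chosen by symbol, the large polarity genes had the most exon regions by number. The FAT, DCHS and CELSR genes had 35 exon regions of 98 in CLBL-1 8.0 and 24 of 73 in CLBL-1. Over all regions assigned to a gene, the exon shares were 17.4% and 19.9%. By share, PCDH10, PCDH18 and PCDH19 together stood higher than the polarity genes, with 7 of 10 and 6 of 10. FAT1 had 7 and 5, FAT2 had 4 and 0, CELSR2 had 6 and 5, CELSR3 had 6 and 4, and CELSR1 had 5 and 6. Of the 10 FAT2 regions in CLBL-1 8.0, 3 coding exon regions had no CLBL-1 counterpart, with folds of 3.38, 5.23 and 3.94. The remaining one, with a fold of 9.50, met a CLBL-1 region that is classed as intron, with a fold of 17.5. Over all exon regions of CLBL-1 8.0, 30.1% had no counterpart. All FAT2 regions of both lists lay outside islands and shores.

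Intron regions were unevenly spread over the genes. CDH23, one of the proteins of the tip links of inner ear hair cells, had 47 intron regions in CLBL-1 8.0 and 36 in CLBL-1, spread over a stretch of 365 kb. Of its 54 and 43 regions in all, 36 and 28 lay outside islands and shores. As many regions or more were listed for only 45 of 21324 genes in CLBL-1 8.0 and 45 of 17368 in CLBL-1. Of its regions, 16 in CLBL-1 8.0 and 4 in CLBL-1 met none of the other list. Over all regions, 38.4% in CLBL-1 8.0 and 8.99% in CLBL-1 met none. The 1 Mb window of chromosome 4 that holds all of them, from 22 to 23 Mb, had 151 regions of any gene in CLBL-1 8.0 and 107 in CLBL-1, a ratio of 1.41. The next window, from 23 to 24 Mb, had 70 and 8.

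CELSR1, a core planar polarity gene, had almost equal numbers, at 32 and 31, in nearly equal contexts, with 13 island and 16 shore regions in each list. In each list 5 CELSR1 regions met none of the other, where the shares over all regions are 38.4% and 8.99%. The median folds of CELSR1 regions were 3.66 in CLBL-1 8.0 and 3.84 in CLBL-1. CDH8, a type II cadherin gene of neurons, had 28 and 23 regions, of which 22 in CLBL-1 8.0 and 19 in CLBL-1 met an island or shore, and it had no promoter region. All 23 CDH8 regions of CLBL-1 met a CLBL-1 8.0 region. CDH11, on the same chromosome, had 16 and 15. Gene length was not taken into account in these counts.

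The intron regions of highest fold were again shared. PCDH11X had one at 68999317 to 68999742 of chromosome X in CLBL-1 8.0 and at 68999311 to 68999772 in CLBL-1, with folds of 15.8 and 21.8. CDH18 followed with 15.8 in CLBL-1 8.0 (chromosome 4, 84316812 to 84317420) and 20.3 in CLBL-1 (84316801 to 84317443), and the only CDH20 region, at a shore, had 15.3 and 19.3. CDH17, the cadherin of liver and intestine, had 13.1 and 18.5. CDH23 had a pair of such intron regions, one at a shore with 13.1 and 20.2 and one outside islands and shores with 13.1 and 18.6. A CDH22 intron region at a shore had 13.2 in CLBL-1 8.0.

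Nearly every CLBL-1 region of the family was also listed in CLBL-1 8.0. Of the CLBL-1 8.0 regions, 244 of 341 met a CLBL-1 region (71.6%, 66.5 to 76.1), and 97 did not. Of the CLBL-1 regions, 242 of 260 met a CLBL-1 8.0 region (93.1%, 89.3 to 95.6), and 18 did not. Over all regions, 38.4% in the CLBL-1 8.0 list and 8.99% in the CLBL-1 list met none of the other. By class, 2 promoter, 23 exon and 70 intron regions of CLBL-1 8.0 had no counterpart, where the background shares are 24.0%, 30.1% and 46.8%. In CLBL-1 1 promoter, 4 exon and 12 intron regions had none, with background shares of 5.68%, 8.73% and 9.91%. For promoters in CLBL-1 8.0 the share with a counterpart was 93.5% (79.3 to 98.2), against 76.0% over all promoter regions, and for introns 68.0% (61.6 to 73.9), against 53.2%.

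The 97 regions of CLBL-1 8.0 without a counterpart were spread over 31 genes. They were short, with a median length of 306 bp against 523 bp for those with one, and had folds from 2.29 to 8.86 with a median of 4.64. Of the 97, 81 lay outside islands and shores, 15 met a shore and 1 an island. These values are near those of all CLBL-1 8.0 regions without a counterpart, which had a median length of 314 bp and a median fold of 4.75, and of which 88.7% lay outside, against 83.5% in the family. Besides CDH23 with 16, FAT1 had 7, PCDH9 had 6, and CDH13 and CELSR1 had 5 each. FAT1, which encodes a giant cadherin, thus had 20 regions in CLBL-1 8.0 and 13 in CLBL-1, and all 13 were met. PCDH9 had 11 and 5, and CDH13 had 9 and 4, and here too every CLBL-1 region was met. The highest fold after the CDH9 promoter was 8.55, for an intron region of PCDH15, the partner of CDH23 in tip links (chromosome 26, 34566321 to 34566696).

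The 18 CLBL-1 regions without a counterpart came from 8 genes, 5 from CELSR1 and 4 from CDH23. Their folds ran from 2.22 to 6.11, with a median of 3.97, and 9 of them lay outside islands and shores. The highest was an intron region of PCDH11X (chromosome X, 68708791 to 68709313, fold of 6.11). In the other 30 genes with CLBL-1 regions, all regions met one of CLBL-1 8.0.

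**Figure D4:**
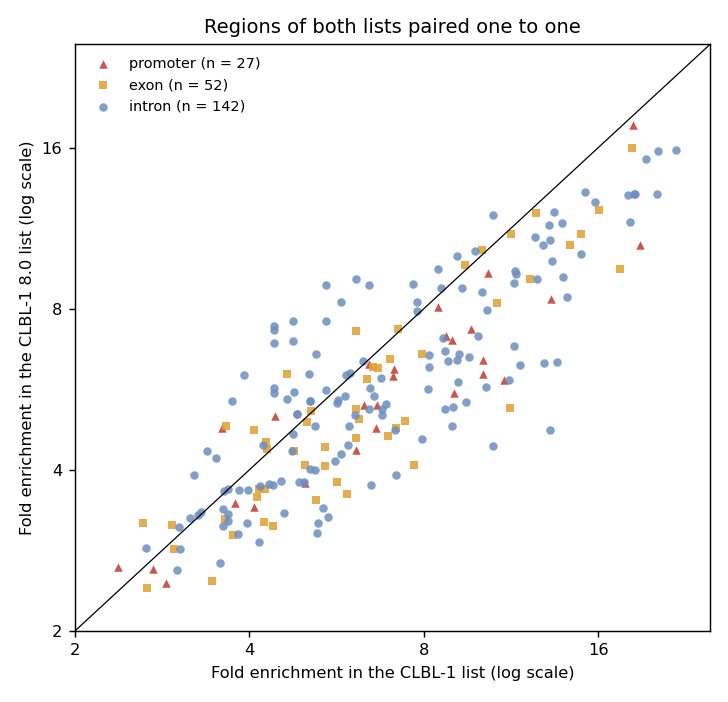
Fold enrichment in the CLBL-1 8.0 list (vertical, log scale) against that in the CLBL-1 list (horizontal, log scale) for regions that met a single region of the other list, with triangles for 27 promoter, squares for 52 exon and circles for 142 intron regions by their CLBL-1 8.0 class. The line marks equal folds, and 168 of all 229 pairs lie below it.

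Where a region met a single counterpart, the folds of both lists can be set side by side, in 229 pairs. The median edge was shifted by 42 bp between the lists, and the median lengths were 519 bp in CLBL-1 8.0 and 548 bp in CLBL-1. The fold was lower in CLBL-1 8.0 in 168 pairs, among them 24 of 27 promoter, 40 of 52 exon and 97 of 142 intron pairs. Over all pairs of the lists it was lower in 77.4%, and in 80.3%, 79.5% and 75.7% of promoter, exon and intron pairs. The median log2 ratio, CLBL-1 8.0 over CLBL-1, was -0.24 in the family and -0.27 over all 71549 pairs. Since the background behind each list's folds is not given, this ratio is a description of the lists. In 21 of the 229 pairs the overlapping regions belonged to different classes in the 2 lists.

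The clustered protocadherins, which give each neuron its own surface identity through a choice among many first exons, enter the family by symbol only as PCDHAC1 and PCDHB1. PCDHAC1 had 1 shore region in an exon, with folds of 7.34 in CLBL-1 8.0 and 7.22 in CLBL-1, and PCDHB1 had 1, described above. The tables hold 17 further genes of these clusters on chromosome 2 under LOC identifiers, found by their descriptions after the data were seen. With these, 19 genes had 65 regions in CLBL-1 8.0 and 62 in CLBL-1, between 35918831 and 36483272. Of these, 62 of 65 regions in CLBL-1 8.0 and all 62 in CLBL-1 had a counterpart, where the shares over all regions are 61.6% and 91.0%.

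In these clusters, 53 regions of CLBL-1 8.0 and 49 of CLBL-1 were in exons, and 60 and 59 met an island or shore, leaving 5 and 3 outside. Over all regions, 62.5% in CLBL-1 8.0 and 46.8% in CLBL-1 lay outside. Exons held 17.4% and 19.9% of all regions assigned to a gene. The stretch held 12.0 regions per 100 kb in CLBL-1 8.0 and 11.5 in CLBL-1, where all of chromosome 2 held 7.05 and 5.10. The 9 beta genes had 11 regions in each list, each at a shore, with folds between 8.93 and 11.2 in CLBL-1 8.0 and between 9.30 and 13.1 in CLBL-1. The alpha genes had 21 regions in each list, with median folds of 7.34 and 7.22, and the gamma genes had 33 and 30, with median folds of 5.56 and 7.45. Near-identical copies make the assignment of reads in these clusters uncertain, and the treatment of reads with several matches is not stated in the labels.

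**Figure D5:**
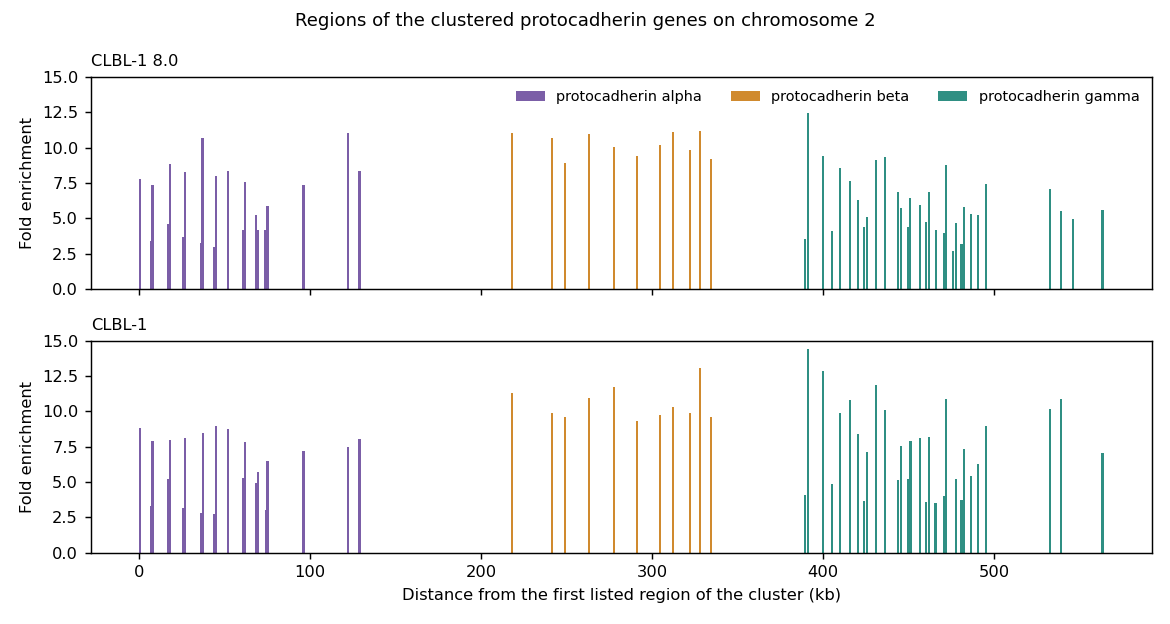
Fold enrichment (vertical axis) of each listed region of the clustered protocadherin genes on chromosome 2, by distance from the first region (kb), with CLBL-1 8.0 above CLBL-1 and colours for the alpha, beta and gamma clusters. The 11 beta regions stand at 8.93 or more in both lists, and the same stretches are listed in both panels apart from 3 gamma regions of CLBL-1 8.0.

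Proteins that work with cadherins were examined through 49 genes, of which 40 had a region in either list. A promoter region was listed for 19 of them in CLBL-1 8.0 and 20 in CLBL-1, and for 17 in both, where the shares over all listed genes are 48.1%, 39.0% and 35.5%. Partner genes without any region count among the 49, but not among the listed genes. CTNNA1, which encodes alpha-catenin, the link to actin, had folds of 8.34 in CLBL-1 8.0 and 11.6 in CLBL-1, and JUP, the gene of plakoglobin, had 9.32 and 10.8. CTNNB1, the beta-catenin gene, had no region in either list. The promoter of CTNND1, the gene of p120-catenin, was listed in CLBL-1 8.0 only (8.11), but its region met a CLBL-1 region. SMCHD1, a chromatin regulator of the protocadherin clusters in mice, had one in CLBL-1 8.0 only (7.60) that met none. In CLBL-1 only, ARVCF (3.62), DSG2 (14.4) and LLGL1 (4.07) had one, and of these DSG2, a desmosomal cadherin gene, had a region that met CLBL-1 8.0. Such 1-sided promoter regions, found for 2 and 3 of the 49 partner genes, have a background of 12.6% of listed genes for the resistant line and 3.50% for its parent. SNAI1, a repressor of CDH1, had a shore region in both lists, with folds of 6.80 and 10.2. ZEB1 had 4 regions in CLBL-1 8.0 and 0 in CLBL-1, none in the promoter, where 20.3% of all listed genes were in CLBL-1 8.0 alone. Of 9 planar polarity genes, 6 were listed by promoter for CLBL-1 8.0 and 7 for CLBL-1, beside the same 48.1% and 39.0% of all listed genes.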

How the data were processed

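MethylCap-seq libraries of both lines, 1 low salt and 1 high salt eluate each, were analysed as 1 region table per line. The submitters' processing notes name BWA, MACS2 and CanFam3.1. For their versions and settings, the sources used here give none. The fold enrichment is a linear ratio per region that the authors deposited, with its background not stated. Whether eluates were pooled before calling, and whether positions count from 0 or 1, is not stated, and positions were read as counted from 1.

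Members and gene lists were chosen with earlier results of these data known. Genes named were those with an unmatched promoter region in 1 list, the 5 regions of highest fold per class and list, the 5 genes with most regions or the largest differences, clustered protocadherins, and CDH1, CDH2, CDH3, CDH5, CDH13 and CDH15. Others serve as examples. 1 gene of the family is not reported here. Names were checked in the RefSeq gene table of UU_Cfam_GSD_1.0, which held 39 of the 40 genes and was used for names only.

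Promoter regions carry the authors' flag, and other regions are exon (coding or untranslated), intron, downstream or upstream by the authors' category. Regions were shared with at least 1 bp in common. Rows with displaced cells (6 in CLBL-1 8.0, 2 in CLBL-1) were kept without a gene. Overlap counting was tested on simulated data. Python 3.11.15, numpy 2.4.6, pandas 2.3.3, statsmodels 0.14.6 and matplotlib 3.10.9 were used.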

Additional observations from a re-analysis of the deposited data

How the results depend on the processing

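No paired analysis was possible because there is a single library for every group and nothing was tested. Depth is unknown, so small or weakly captured regions may be missing from either list. Above a fold of 5.28, the median of both lists pooled, 154 CLBL-1 8.0 and 150 CLBL-1 regions of the family remained, of which 8.44% and 9.33% met an island, against 15.8% and 20.0% of all family regions, and 76.0% of the CLBL-1 regions met one of the other list. With lists of equal length, which removes only CLBL-1 8.0 regions of low fold, the family had 230 CLBL-1 8.0 and 260 CLBL-1 regions, 10.9% of the 230 met an island, 66.5% of CLBL-1 regions had a counterpart, 56.5% of CLBL-1 8.0 regions lay outside islands and shores, and the promoters of 5 genes were listed for CLBL-1 alone. At 50% reciprocal overlap, 65.7% of CLBL-1 8.0 regions and 86.5% of CLBL-1 regions had a counterpart. With promoters as region starts within 1000 bp of the transcription start, CLBL-1 8.0 had 0 genes of its own and CLBL-1 had 0. Chosen after seeing the data, leaving out CELSR1 and CDH8 put 56.2% of CLBL-1 8.0 and 44.2% of CLBL-1 regions outside islands and shores, leaving out CDH23 gave 1 gene in CLBL-1 8.0 only, and adding the LOC genes gave 2 in CLBL-1 only, with 42.4% of CLBL-1 8.0 and 31.0% of CLBL-1 regions outside islands and shores. Of 29 values, the cut at the pooled median fold moved 14, lists of equal length moved 6 and adding the LOC genes moved 7. Leaving out CELSR1 and CDH8 moved 4 of 29, and leaving out CDH23 moved 2 of 29. The 50% reciprocal overlap moved 2 of 3 values, and the 1000 bp promoter window moved 2 of 8. Leaving out PCDHAC1 and PCDHB1, the only clustered protocadherins in the family by symbol, left 339 and 258 regions and moved none of 29 values. So small a change could hardly move them, and it says nothing about the clusters as a whole.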
